A study of Mus musculus with 4 samples.

Results

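The neurons described here carried exactly 1 pair of virus barcodes, either those of the dorsomedial striatum and the mediodorsal thalamus (DMS + MD) or those of the dorsomedial striatum and the lateral hypothalamus (DMS + LH). They were chosen by their barcode counts: a neuron had more than 101 DMS UMIs, and more than 114 MD UMIs or more than 103 LH UMIs, while its other barcodes stayed at or below their thresholds, which were 28 for the agranular insular cortex (AI) and 35 for the basolateral amygdala (BLA). A UMI (unique molecular identifier) is a random tag that marks 1 captured RNA molecule. Of 8210 excitatory neurons with a subtype in the deposited annotation, 2050 were barcoded, 51 were DMS + MD and 35 were DMS + LH, 86 in all.

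All samples came from the ventromedial prefrontal cortex (vmPFC) of male C57BL/6 mice whose age at virus injection was 8 weeks, with an interval of several weeks before the cells were collected. Each mouse received all 5 viruses, 1 at each target, in 1 hemisphere, and the viruses also encoded EGFP. Cells of 3 mice were profiled without sorting, 1 library per mouse, and cells of 3 further mice were pooled and FAC-sorted into 1 library, so the sorted cells could not be compared across mice. No mouse without virus was analysed here.

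A neuron of the prefrontal cortex often sends branches of its axon to several regions. The rAAV2-retro capsid enters axon terminals and is carried back to the nucleus. An RNA barcode counted above its threshold in the soma is therefore taken as a sign that the axon reached the injected region. The authors state that uptake by passing axons is not fully excluded. Layer 6 corticothalamic neurons send their main axon to the thalamus, the MD being the prefrontal partner, and layer 5 neurons of the pyramidal tract type reach deep targets such as the hypothalamus and can leave branches in the striatum on their way. L6-Syt6 and L5-Bcl6 are the authors' names, by layer and marker gene, for a layer 6 and a layer 5 subtype of vmPFC excitatory neurons. Whether these subtypes match the corticothalamic and pyramidal tract types was not examined here.

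The barcodes of the 3 targets are shown because each result below rests on telling them apart. Each is 15 bases long and lies in the transcribed part of the virus genome, and no position in the mouse genome applies. Capitals mark the bases of the MD and LH barcodes that differ from the DMS barcode at the same position.
DMS: gaaggcacagacttt
MD: gTTggcTGCAaTCCA
LH: TaTTCGGAGgacGAC
The MD barcode differed from the DMS barcode at 10 positions and the LH barcode at 11, and the MD and LH barcodes differed from each other at 13. The authors' matching allowed 2 mismatches, far fewer than these distances. In each of the 4 libraries these were the most frequent 15-base sequences among the reads assigned to their targets. Within the 86 neurons, exact matches made up 97.8% of the 106730 DMS reads and 98.0% of the 917384 MD reads of DMS + MD neurons, and 98.2% of the 81681 DMS reads and 98.6% of the 506026 LH reads of DMS + LH neurons.

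The libraries held between 20443286 and 32895529 projectome reads, of which 86.4% to 91.6% matched a barcode. The FAC-sorted library stood apart in its counts: its median excitatory neuron had 215 barcode UMIs and 31436 transcriptome UMIs, against 37 to 52.5 and 20881.5 to 22641 in the unsorted mice. The authors sorted for EGFP. Barcoded neurons were 780 of 1505 there, against 416 of 2440, 425 of 2146 and 429 of 2119 in mice 1, 2 and 3. Median barcode UMIs of sorted and unsorted neurons with 1 target were closer: 272 and 248 for DMS, 316 and 288.5 for MD, 307 and 280 for LH. The part of cell composition was not tested. None of the 86 neurons shared its cell barcode with a cell of another library, although 82 of the cell barcodes occurred in several libraries.

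Both patterns lay mostly in the FAC-sorted library. It held 46 of the 51 DMS + MD neurons, unsorted mouse 2 held 4, unsorted mouse 3 held 1 and unsorted mouse 1 held 0. Of the 35 DMS + LH neurons it held 28, with 1, 3 and 3 in unsorted mice 1, 2 and 3. DMS + MD neurons made up 5.90% of the 780 barcoded neurons of the FAC-sorted library (95% Clopper-Pearson interval, 4.35% to 7.79%). In the unsorted mice their share was 0.391% ± 0.490 (mean ± SD, n = 3), and 0 of 416 in mouse 1 allows a share of up to 0.721% when 3 counts are taken as the limit of a count of 0 (Clopper-Pearson upper limit, 0.883%). DMS + LH neurons made up 3.59% (2.40% to 5.15%) of the barcoded neurons of the FAC-sorted library and 0.549% ± 0.267 (mean ± SD, n = 3) of those of the unsorted mice. These intervals cover counting error only. With 1 sorted library the difference in share between sorted and unsorted cells had no test.

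A cut made by the authors bears on these counts. They removed the cells above the 95th percentile of summed barcode UMIs in each library, so the highest sum kept was 402 in unsorted mouse 1, 485 in mouse 2, 528 in mouse 3 and 1011 in the FAC-sorted library. The members of the FAC-sorted library had sums of 305 to 607 in DMS + MD and 322 to 546 in DMS + LH neurons. Of these, 32 of 46 DMS + MD and 15 of 28 DMS + LH neurons had sums above 402, and 9 and 3 had sums above 528. In unsorted mouse 1 the removed cells included 4 with the DMS + MD pattern and 5 with the DMS + LH pattern, more than the 0 and 1 that were kept. Mouse 2 lost 1 DMS + MD cell in this way, and mouse 3 and the FAC-sorted library lost none of either pattern. The part of this cut in the difference between libraries was not tested.

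DMS + MD neurons lay almost wholly in 1 subtype and DMS + LH neurons in 2. DMS + MD neurons were L6-Syt6 in 47 of 51 cases (92.2%, 95% interval 81.1% to 97.8%), with 3 L5-S100b neurons and 1 L6-Npy neuron making up the rest. The intervals on cells of all libraries, here and below, cover counting error only and not the spread between libraries. No DMS + MD neuron was L5-Bcl6, and 0 of 51 allows a share of up to 5.88% by the limit of 3 counts (Clopper-Pearson upper limit, 6.98%). DMS + LH neurons were split, with 18 L6-Syt6 (51.4%, 34.0% to 68.6%) and 17 L5-Bcl6 (48.6%, 31.4% to 66.0%) and no other subtype. For scale, L6-Syt6 made up 4819 of all 8210 excitatory neurons, and 739 of 1505 in the FAC-sorted library. Over all libraries together, the L6-Syt6 share of DMS + LH neurons was thus not far from that of all neurons. In the unsorted mice only 1 of 7 DMS + LH neurons was L6-Syt6. There L6-Syt6 made up 1426 of 2440, 1354 of 2146 and 1300 of 2119 excitatory neurons in mice 1, 2 and 3. L5-Bcl6 was rare among all excitatory neurons, with 270 of 8210 cells, and DMS + LH neurons made up 18.3% (9.52% to 30.4%) of the L5-Bcl6 neurons of the FAC-sorted library and 3.15% ± 1.95 (mean ± SD, n = 3) of those of the unsorted mice.

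The split of DMS + LH neurons went different ways in sorted and unsorted cells. The FAC-sorted library held 17 L6-Syt6 and 11 L5-Bcl6 neurons. The unsorted mice held 6 L5-Bcl6 neurons, 1 in mouse 1, 2 in mouse 2 and 3 in mouse 3, and a single L6-Syt6 neuron, in mouse 2. L5-Bcl6 thus made up 39.3% of DMS + LH neurons in the sorted library and 88.9% ± 19.2 (mean ± SD, n = 3) in the unsorted mice, on 7 neurons. DMS + MD neurons did not show such a split: L6-Syt6 made up 42 of 46 in the sorted library, 4 of 4 in mouse 2 and 1 of 1 in mouse 3.

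Only unsorted mouse 2 and the FAC-sorted library held 3 or more neurons of both patterns and could be compared within a library. The L6-Syt6 share was higher in DMS + MD than in DMS + LH neurons by 66.7 percentage points in mouse 2 and by 30.6 in the FAC-sorted library. The L5-Bcl6 share was higher in DMS + LH neurons by 66.7 and 39.3 percentage points. Both differences had the same direction in 2 of 2 libraries, and an exact two-sided sign-flip permutation test over 2 libraries gave p = 0.5, the smallest it can give, or 0.583 after Benjamini-Hochberg adjustment over the 14 such tests made. The gap in L6-Syt6 share over these libraries was 48.6 ± 25.5 percentage points (mean ± SD, n = 2), so its size was poorly fixed. Its shared direction rests on 2 libraries, and mouse 2 held only 4 DMS + MD and 3 DMS + LH neurons. With AI and BLA disregarded, the gap was absent in the FAC-sorted library, as given below. The subtypes were called on transcriptomes aligned to a genome to which the barcodes had been added as genes, and whether these genes entered the clustering is not given in the sources used here.

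DMS + MD neurons were then set beside neurons with 1 of the targets. L6-Syt6 made up 277 of 281 MD-dedicated neurons and 74 of 594 DMS-dedicated neurons. The share in DMS + MD neurons exceeded that in DMS-dedicated neurons by 82.4 ± 6.27 percentage points (mean ± SD) in 2 of 2 libraries (exact sign-flip p = 0.5, adjusted 0.583), and differed from that in MD-dedicated neurons by +2.44 points in mouse 2 and -8.70 in the FAC-sorted library (mean -3.13, exact p = 1, adjusted 1).

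The share of L5-Bcl6 neurons was larger within DMS + LH than within LH-dedicated neurons. L6-Syt6 made up 138 of 176 LH-dedicated neurons and L5-Bcl6 made up 35. Within a library the L5-Bcl6 share was higher in DMS + LH than in LH-dedicated neurons by 50.9 percentage points in mouse 2, 94.1 in mouse 3 and 25.95 in the FAC-sorted library. Mice 2 and 3 held only 3 DMS + LH neurons each. The gap averaged 57.0 ± 34.5 points (SD) and was positive in 3 of 3 libraries (exact sign-flip p = 0.25, the smallest that 3 libraries allow, adjusted 0.583). The L6-Syt6 share was lower by 54.4 ± 35.5 points on average in the same 3 libraries (exact p = 0.25, adjusted 0.583).

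Among neurons valid for the second target, whatever else they carried, DMS was also valid in 132 of 226 MD-valid L6-Syt6 neurons (58.4%, 51.7% to 64.9%) and in 77 of 122 LH-valid L6-Syt6 neurons (63.1%, 53.9% to 71.7%) of the FAC-sorted library. Corresponding shares in unsorted mice 1, 2 and 3 were 0 of 71, 15 of 109 and 22 of 88 for MD, and 0 of 42, 4 of 44 and 5 of 47 for LH. For LH-valid L5-Bcl6 neurons DMS was valid too in 16 of 22 (72.7%, 49.8% to 89.3%) in the FAC-sorted library and in 2 of 24, 3 of 10 and 7 of 9 in the unsorted mice. The sorted library lay above every unsorted mouse for L6-Syt6 neurons, whereas for L5-Bcl6 neurons it lay below mouse 3.

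The counts of the barcodes that chose the neurons are given as a description, without a test. In DMS + MD neurons the DMS barcode had 102 to 285 UMIs with a median of 115, and the MD barcode 115 to 365 with a median of 223. In DMS + LH neurons the DMS barcode had 103 to 247 UMIs with a median of 120, and the LH barcode 109 to 290 with a median of 177. The DMS barcode was thus the weaker of the pair and sat near its threshold: 46 of 51 DMS + MD and 32 of 35 DMS + LH neurons had no more than 1.5 times the 101 UMIs. By contrast, 16 of 51 and 11 of 35 lay as close to the MD and the LH threshold.

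At the edge of the rule, the DMS + MD neurons with the fewest DMS UMIs had 102, 102 and 103, and the MD-dedicated neurons with the most had 101, 101 and 101. For DMS + LH the lowest were 103, 104 and 105, and the highest LH-dedicated neurons had 101, 101 and 101. On the other side, the lowest MD counts of DMS + MD neurons were 115, 117 and 119, while the highest in DMS-dedicated neurons were 114, 110 and 110. The lowest LH counts of DMS + LH neurons were 109, 115 and 118, and the highest in DMS-dedicated neurons were 103, 99 and 88.

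The second target outweighed the DMS in most neurons. MD UMIs outnumbered DMS UMIs in 46 of 51 DMS + MD neurons, with a median log2 ratio of MD to DMS of 0.99. LH UMIs outnumbered DMS UMIs in 31 of 35 DMS + LH neurons, with a median log2 ratio of LH to DMS of 0.56. Without the FAC-sorted library these medians were 0.30 for MD and 0.12 for LH, and the mean of the library medians, each library weighted equally, was 0.79 and 0.23. Subtypes departed from this. The 3 L5-S100b DMS + MD neurons had 285, 247 and 230 DMS UMIs against 115, 119 and 129 MD UMIs, and the L6-Npy neuron had 136 against 117. In L6-Syt6 neurons of the FAC-sorted library the ratio of MD to DMS was above 0 in 42 of 42, between 0.03 and 1.61. The one unsorted L6-Syt6 DMS + LH neuron went the other way, with 247 DMS and 109 LH UMIs.

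The DMS counts of these neurons can be set beside those of neurons that missed the DMS threshold in the same library and subtype. In the FAC-sorted library L6-Syt6 MD-dedicated neurons had 60 to 101 DMS UMIs with a median of 86, and L6-Syt6 DMS + MD neurons 102 to 209 with a median of 114.5. LH-dedicated L6-Syt6 neurons had 54 to 101 with a median of 86, and DMS + LH L6-Syt6 neurons 103 to 148 with a median of 117. In the unsorted mice MD-dedicated L6-Syt6 neurons had 37 to 98 DMS UMIs with a median of 69. The groups met at the threshold in the sorted library, which the rule brings about.

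As a share of the UMIs of all 5 barcodes, DMS made up 19.5% to 39.5% (median 25.7%) in the L6-Syt6 DMS + MD neurons of the FAC-sorted library, against 17.3% to 34.5% (median 26.8%) in the L6-Syt6 MD-dedicated neurons beside them. The sums of the former were higher, with 305 to 607 barcode UMIs (median 440) against 226 to 485 (median 316). For DMS + LH, DMS made up 22.9% to 34.2% (median 27.8%) of 322 to 546 UMIs (median 432) in L6-Syt6 neurons of that library, and 21.6% to 34.4% (median 27.2%) of 221 to 454 (median 313) in LH-dedicated ones. In DMS-dedicated L6-Syt6 neurons of the same library DMS made up 37.3% to 67.9% (median 55.6%).

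The barcodes that were not valid were present as well. DMS + LH neurons held 44 to 107 MD UMIs (median 71), none above the 114 of the threshold, and DMS + MD neurons held 34 to 86 LH UMIs (median 51). AI UMIs ranged from 12 to 28 (median 23) in DMS + MD and from 14 to 28 (median 23) in DMS + LH neurons, up to the AI threshold itself. BLA UMIs ranged from 8 to 29 and from 8 to 26. The nearest other pattern, DMS + MD + LH, was found in 11 neurons, 10 of them in the FAC-sorted library.

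Most neurons with DMS and MD valid, and fewer of those with DMS and LH valid, also passed the AI threshold. The share of all DMS-valid neurons that passed it is not given here, so these counts have no scale. With AI and BLA disregarded, 164 neurons had DMS and MD but not LH, and 113 of these had AI or BLA too: 96 had AI, 17 had AI and BLA. Of these 113, 68 were L6-Syt6, 24 L5-S100b and 4 L5-Bcl6. For DMS and LH without MD the count was 59, of which 24 had AI or BLA too, 14 of them L6-Syt6 and 8 L5-Bcl6. Unsorted mouse 3 held 20 neurons with DMS and MD, 19 of which also had AI, and mouse 2 held 17, 13 of which also had AI.

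The deposited reads give a second view of each UMI, the number of reads behind it, which the counts do not use. In the FAC-sorted library 57.3% of all combinations of neuron, barcode and UMI had a single read and carried 1.51% of the reads, while 8.09% had at least 50 reads and carried 93.7%. In the unsorted mice 12.0% to 13.0% had at least 50 reads, with 90.8% to 93.5% of the reads. UMIs with at least 50 reads whose barcode had the most reads of that UMI in the cell are called often read here. This measure was chosen after its values had been seen, and since it comes from the same barcodes as the rule it is given without a test.

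The second target passed this measure in every neuron. All 51 DMS + MD neurons had often read MD UMIs, 6 to 61 of them in the FAC-sorted library and 29 to 105 in the unsorted mice. All 35 DMS + LH neurons had often read LH UMIs, 15 to 61 in the FAC-sorted library and 21 to 46 in the unsorted mice.

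The DMS barcode did not. Of the 42 L6-Syt6 DMS + MD neurons of the FAC-sorted library, 40 had no often read DMS UMI, 1 had a single one, beside 111 DMS UMIs in all, and 1 had 16, beside 209. Of the 17 L6-Syt6 DMS + LH neurons of that library, 16 had none and 1 had 6. These L6-Syt6 neurons were nearly uniform in lacking them. Their DMS counts had upper quartiles of 119 in DMS + MD and 122 in DMS + LH neurons. The highest count, 209, was that of the neuron with 16 often read DMS UMIs.

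The L5-Bcl6 DMS + LH neurons differed from them. In the FAC-sorted library 8 of 11 had often read DMS UMIs, with counts of 0, 0, 0, 1, 4, 6, 8, 8, 8, 10 and 14. In the unsorted mice 5 of 6 had them, with 9 in mouse 1, 0 and 21 in mouse 2, and 17, 31 and 27 in mouse 3. Together 13 of 17 L5-Bcl6 DMS + LH neurons had an often read DMS UMI, against 2 of 18 L6-Syt6 DMS + LH neurons. Their total DMS counts overlapped, with 104 to 155 UMIs in L5-Bcl6 and 103 to 247 in L6-Syt6 neurons.

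The few unsorted L6-Syt6 neurons and the rare subtypes also differed from the sorted L6-Syt6 neurons. Of 4 L6-Syt6 DMS + MD neurons of mouse 2, 3 had often read DMS UMIs, 14, 29 and 22 of them, and the fourth had none. The single DMS + MD neuron of mouse 3 had none, beside 105 often read MD UMIs. The L6-Syt6 DMS + LH neuron of mouse 2 had 53. The 3 L5-S100b DMS + MD neurons had 54, 35 and 37, and the L6-Npy neuron 15. In all, 5 of 47 L6-Syt6 DMS + MD neurons had an often read DMS UMI, and 2 of these were from the FAC-sorted library.

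Neurons with 1 target give the scale. Of 594 DMS-dedicated neurons 592 had often read DMS UMIs, with a median of 20 in the FAC-sorted library and 36 in the unsorted mice. Among L6-Syt6 neurons these were 29 of 30 in the FAC-sorted library (median 14) and 44 of 44 in the unsorted mice (median 32). Of L6-Syt6 MD-dedicated neurons, 2 of 87 in the FAC-sorted library and 10 of 190 in the unsorted mice had any, at most 2 in a neuron. Of L6-Syt6 LH-dedicated neurons, 1 of 39 and 5 of 99 had any, at most 2 and 11 in a neuron. L5-Bcl6 LH-dedicated neurons had them in 2 of 6 and 9 of 29, with at most 13. The 40 and 16 sorted L6-Syt6 members without any thus had the value of most MD-dedicated and LH-dedicated neurons, and no test of this was made.

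The share of reads that belonged to the DMS barcode rests largely on the same UMIs. Those with at least 50 reads carried 93.7% of the reads of the FAC-sorted library. The share of DMS reads is therefore given as a description and not as separate evidence. It was 1.16% to 36.5% (median 2.23%) in L6-Syt6 DMS + MD neurons and 1.60% to 16.6% (median 2.23%) in L6-Syt6 DMS + LH neurons of the FAC-sorted library. It was 2.61% to 43.8% (median 16.8%) in the L5-Bcl6 DMS + LH neurons of that library and 3.71% to 55.7% (median 30.6%) in those of the unsorted mice. MD-dedicated and LH-dedicated L6-Syt6 neurons of the FAC-sorted library had medians of 2.28% and 2.35%, and DMS-dedicated L6-Syt6 neurons 94.5%. Per UMI, the DMS barcode had a median of 3.92 reads in sorted L6-Syt6 DMS + MD neurons, 3.30 in sorted L6-Syt6 DMS + LH neurons and 22.7 in sorted L5-Bcl6 DMS + LH neurons, while the MD barcode of the first had 85.4 and the LH barcode of the others 87.5 and 69.7.

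Most L5-Bcl6 neurons that passed the DMS threshold alone also had often read LH UMIs. All 8 L5-Bcl6 DMS-dedicated neurons of the unsorted mice had often read LH UMIs, 6 to 24 of them, although their LH counts of 42 to 103 did not pass the threshold. In the FAC-sorted library 4 of 6 such neurons had them. Among L6-Syt6 DMS-dedicated neurons the same was so in 9 of 44 unsorted and 7 of 30 sorted neurons.

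Often read UMIs of a further target were found in a minority. Of the 35 DMS + LH neurons, 9 had often read MD UMIs, with the most, 15, in the L5-Bcl6 neuron of mouse 1, which had 94 MD UMIs in all. Of the 51 DMS + MD neurons, 5 had often read LH UMIs, at most 8. Neurons with 1 target had such UMIs as well. The upper quartile of often read MD UMIs was 0.5 in DMS + LH, 2 in LH-dedicated and 1 in DMS-dedicated neurons. For often read LH UMIs it was 0 in DMS + MD, MD-dedicated and DMS-dedicated neurons, with at most 30 and 24 in the latter groups. A further target read often was thus not particular to these patterns.

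Some UMIs occurred under more than 1 barcode of the same neuron. In DMS + MD neurons 2346 UMIs were found under both the DMS and the MD barcode, 36.4% of the 6447 DMS UMIs, 21.0% of the 11150 MD UMIs and 15.4% of those under either. In DMS + LH neurons 1488 UMIs were under both DMS and LH, 33.8% of the 4400 DMS UMIs, 23.6% of the 6317 LH UMIs and 16.1% of those under either. The share under either ran from 8.13% to 36.9% between DMS + MD neurons and from 8.92% to 31.4% between DMS + LH neurons, so the patterns overlapped.

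Where a UMI was shared, the second target mostly had more reads of it. MD had more reads than DMS in 2009 of 2346 shared UMIs of DMS + MD neurons (85.6%), and LH more than DMS in 1254 of 1488 of DMS + LH neurons (84.3%). In the 3 L5-S100b neurons DMS had more reads in 116 of 155. Sharing was not limited to the valid pair: 25.6% of the DMS UMIs of DMS + MD neurons were also under LH, and 28.3% of those of DMS + LH neurons were also under MD, in neurons where these were not valid. The share was higher in unsorted than in sorted members, with 54.2% against 34.5% of DMS UMIs in DMS + MD and 36.6% against 33.0% in DMS + LH neurons. In MD-dedicated neurons, of which 194 of 281 were unsorted, 55.6% of DMS UMIs were also under MD. DMS + MD neurons were mostly sorted, and the part of the library in this difference was not tested.

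Counting each shared UMI only for the barcode with the most reads moved most members out of their pattern. A shared UMI whose most reads were tied between barcodes was counted for none of them. Of the 51 DMS + MD neurons 2 kept it, 44 became MD-dedicated and 5 DMS-dedicated. Of the 35 DMS + LH neurons 4 kept it, 28 became LH-dedicated, 2 DMS-dedicated and 1 lost both. By subtype, 3 of 17 L5-Bcl6 and 1 of 18 L6-Syt6 DMS + LH neurons kept it. When only UMIs of at least 2 reads were counted, 0 of 51 and 0 of 35 kept their pattern, and 41 and 28 had no valid barcode left. With exact barcode matches only, 44 of 51 and 32 of 35 kept their pattern. The thresholds were those set for the deposited counts and were not adjusted to these lower counts.

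Transcriptome depth of the members was compared within libraries. Sorted DMS + MD neurons had 20273 to 54869 transcriptome UMIs with a median of 41171.5, and DMS + LH neurons 24508 to 55545 with a median of 39028. The 4 DMS + MD neurons of mouse 2 had 16937, 26386, 29382 and 27195 UMIs, and its 3 DMS + LH neurons 41489, 24839 and 23068. The median DMS + MD neuron was thus 1.05 times as deep as the median DMS + LH neuron in the FAC-sorted library and 1.08 times in mouse 2, a mean log2 difference of 0.09 ± 0.02 (SD, n = 2, higher in 2 of 2, exact sign-flip p = 0.5, adjusted 0.583). With mouse 3 included, whose single DMS + MD neuron had 20052 UMIs, the mean log2 difference turned to -0.00098 (n = 3, exact p = 1). Detected genes differed by a log2 of 0.01 ± 0.01 (n = 2, exact p = 0.5, adjusted 0.583). The authors removed cells above an upper limit of detected genes. Sorted members had medians of 7283 in DMS + MD and 7172 in DMS + LH neurons, and at most 7878 and 7739. The part of this limit in the small difference was not tested.

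Within DMS + LH, depth differed by subtype: among sorted cells the L6-Syt6 neurons reached 42593 transcriptome UMIs in the median and the L5-Bcl6 neurons 31220. Sorted L6-Syt6 DMS + MD neurons had a median of 41613.5, so within this subtype DMS + MD was the lower of the patterns. In mouse 2 the L6-Syt6 medians were 26790.5 for DMS + MD and 23068 for DMS + LH, the latter from 1 neuron. The L6-Syt6 members ranked high among all L6-Syt6 neurons of the FAC-sorted library, at a median percentile of 78.6 for DMS + MD and 81.7 for DMS + LH, with MD-dedicated neurons at 56.2 and LH-dedicated at 59.7. The L5-Bcl6 DMS + LH neurons ranked at 61.7 among L5-Bcl6 neurons. Of the DMS + MD neurons 18 of 51, all of them sorted, and of the DMS + LH neurons 8 of 35 were deeper than the 90th percentile of their library.

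Compared with neurons of 1 target in the same library, DMS + MD neurons were 1.31 times as deep as DMS-dedicated neurons in mouse 2 and 1.39 times in the FAC-sorted library (mean log2 difference 0.44 ± 0.06, SD, exact p = 0.5, adjusted 0.583), and 1.06 and 1.12 times as deep as MD-dedicated neurons (0.13 ± 0.05, exact p = 0.5, adjusted 0.583). DMS + LH neurons were 1.22, 0.986 and 1.32 times as deep as DMS-dedicated neurons in mouse 2, mouse 3 and the FAC-sorted library (0.22 ± 0.22, exact p = 0.5, adjusted 0.583), and 0.988, 0.857 and 1.05 times as deep as LH-dedicated neurons (-0.06 ± 0.15, exact p = 0.75, adjusted 0.808). With all subtypes together, the direction was the same in both libraries for DMS + MD and turned between libraries for DMS + LH. These groups differed in subtype. Among L6-Syt6 neurons alone, DMS + MD neurons had a median of 26790.5 against 27722 in DMS-dedicated neurons of mouse 2. In the FAC-sorted library the L6-Syt6 medians were 41613.5 against 38471.5, so this direction turned between libraries. Against L6-Syt6 MD-dedicated neurons, with medians of 25186.5 and 36706, it did not turn. The part of depth in the double barcodes was not tested.

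The percent of mitochondrial UMIs was lower in DMS + MD than in DMS + LH neurons in both libraries, with medians of 5.09% against 8.13% in mouse 2 and 2.49% against 3.16% in the FAC-sorted library (mean difference -1.85 ± 1.68 percentage points, SD, n = 2, exact sign-flip p = 0.5, adjusted 0.583). In the FAC-sorted library L6-Syt6 members had medians of 2.41% in DMS + MD and 2.63% in DMS + LH, and the L5-Bcl6 DMS + LH neurons 4.28%.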

How the data were processed

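The members and the lists used here were chosen with earlier results of these data known. Per the labels the libraries were processed with Cell Ranger and mm10. The authors assigned projectome reads to 5 barcodes with a modified deMULTIplex, allowing 2 mismatches, and deposited the counts of UMIs per cell and barcode without normalization. In a joined table they removed the cells above the 95th percentile of summed counts and set counts at or below each threshold to 0. The deposited annotation gives each neuron's subtype, its counts of transcriptome UMIs and detected genes, and its percent of mitochondrial UMIs as the authors computed it. The authors left out cells of very high gene or UMI numbers as possible doublets, and no further doublet caller was run. Marker genes of the subtypes were not analysed here.

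The thresholds were read from the joined table, and the resulting 41050 calls differed from the deposited calls in 0 cases. UMIs were recounted from the deposited reads. The recount differed from the deposited tables in 5489, 4609, 4425 and 217 entries, each a count of 1 listed as 0 in the table. Shares have 95% Clopper-Pearson intervals, and a count of 0 also has the limit given by 3 counts. Patterns were compared within each library that held at least 3 neurons of both, by the exact sign-flip permutation test, two-sided, over libraries, with Benjamini-Hochberg adjustment over 14 tests. Cells were not treated as replicates in these tests. The intervals of shares take cells as independent and cover counting error only. The items named were, by rule, the barcodes, patterns, subtypes and libraries, and single neurons only as the lowest, the highest and those nearest a threshold. The further single neurons named, of the unsorted mice and of groups of up to 11, were chosen after their values were seen. Alternatives were other thresholds, AI and BLA disregarded, exact matches, UMIs of at least 2 reads, shared UMIs given to 1 barcode, the deepest neurons left out, each library left out, equal weights and other minimum numbers of neurons. The counting steps were tested on simulated reads. Python 3.11.15, numpy 2.4.6, pandas 2.3.3 and scipy 1.17.1 were used. A further 24 columns of the annotation were not used.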

Additional observations from a re-analysis of the deposited data

Results flagged for a closer look

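The subtype of DMS + LH neurons went opposite ways in unsorted and sorted cells. The L6-Syt6 share minus the L5-Bcl6 share was -100 percentage points in unsorted mouse 1, -33.3 in mouse 2 and -100 in mouse 3, and 21.4 in the FAC-sorted library. It drew attention because every unsorted mouse lay on one side of 0 and the sorted library on the other. With AI and BLA disregarded, mouse 2 held 3 L6-Syt6 and 3 L5-Bcl6 neurons with DMS and LH, so it no longer lay on that side, while mouse 1 held 0 and 2, mouse 3 held 1 and 7, and the sorted library 28 and 13. The difference was not tested, and the unsorted values rest on 1, 3 and 3 neurons.

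Cells with the same patterns lay outside the neurons analysed. Among the 1243 cells that the authors removed for high barcode sums, 5 had the DMS + MD and 5 the DMS + LH pattern, 9 of these 10 from unsorted mouse 1. The 5 DMS + LH cells, which have no subtype, had 8 to 39 often read DMS UMIs and 30 to 76 often read LH UMIs. Of the 5 DMS + MD cells 1 had 43 often read DMS UMIs and 4 had none, beside 19 to 94 often read MD UMIs. None of the 11242 annotated cells of other types had either pattern. The authors set the thresholds at or above a high percentile of non-neuronal cells. For those cells this count was therefore nearly fixed in advance.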

How the results depend on the processing

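With thresholds set by a high percentile of non-neuronal cells (AI 23, DMS 82, MD 71, BLA 10 and LH 40), 21 DMS + MD neurons were found, of which 81.0% were L6-Syt6 and 9.52% L5-Bcl6, and the median log2 ratios to DMS were 0.19 for MD and -0.42 for LH. With thresholds 1.5 times higher, there were 11 DMS + MD neurons (81.8% L6-Syt6, 9.09% L5-Bcl6, log2 ratio 0.33) and 3 DMS + LH neurons (0% L6-Syt6, 100% L5-Bcl6, log2 ratio 0.22, 25.5% of UMIs shared), and no library could be tested. With AI and BLA disregarded there were 164 and 59 neurons, with 70.1% L6-Syt6 and 2.44% L5-Bcl6 in the former. Of the 59 neurons with DMS and LH, 32 were L6-Syt6 and 25 L5-Bcl6. Exact matches gave 2.08% L5-Bcl6 in DMS + MD. UMIs of at least 2 reads gave 10 and 5 neurons, 0 of them members, 100% L6-Syt6 in DMS + MD, and 35.0% and 33.9% of UMIs shared. Counting a shared UMI only for its most read barcode, and for none in a tie, gave 14 and 9 neurons, 2 and 4 of them members. In DMS + MD this gave 71.4% L6-Syt6, 7.14% L5-Bcl6 and a log2 ratio of 0.0902. The shared share is then 0 by construction and was not computed. Leaving out the deepest neurons gave 33 DMS + MD neurons. Equal weights of libraries gave a log2 ratio of LH to DMS of 0.23. With at least 1 neuron of each pattern per library, the log2 difference in transcriptome UMIs turned to -0.00098 over 3 libraries.

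Leaving out each library in turn gave 5 to 51 DMS + MD and 7 to 34 DMS + LH neurons, the lowest without the FAC-sorted library. The L6-Syt6 share ranged from 91.5% to 100% in DMS + MD and from 14.3% to 56.2% in DMS + LH, where L5-Bcl6 ranged from 43.8% to 85.7%. Median log2 ratios ranged from 0.30 to 1.03 for MD and from 0.12 to 0.58 for LH, and shared UMIs from 14.7% to 27.6% in DMS + MD and from 15.6% to 22.7% in DMS + LH. Averaged over libraries, the L6-Syt6 gap between patterns stayed positive under every alternative that gave a value, as did the L5-Bcl6 gap. With AI and BLA disregarded, the L6-Syt6 gap was absent in the FAC-sorted library, with 83 of 127 DMS + MD and 28 of 42 DMS + LH neurons. It remained in mouse 2, with 14 of 17 against 3 of 7, and in mouse 3, with 18 of 20 against 1 of 8. The exact sign-flip permutation test cannot go below p = 0.5 on 2 libraries or 0.25 on 3. The cause of these changes was not tested. The unsorted libraries could not be paired with the sorted pool, because they came from different mice. The 1 replicate number they share stands for different mice, so replicate numbers served as no block. The patterns themselves were compared within libraries.

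After the data were seen, the count of neurons with an often read DMS UMI was repeated at 20 and 100 reads and without regard to which barcode had the most reads: it stayed at 5 of 47 L6-Syt6 DMS + MD, 2 of 18 L6-Syt6 DMS + LH and 13 of 17 L5-Bcl6 DMS + LH neurons. Requiring 5 such UMIs gave 4, 2 and 11. Without the FAC-sorted library the counts were 3 of 5, 1 of 1 and 5 of 6, and without unsorted mouse 2 they were 2 of 43, 1 of 17 and 12 of 15.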

Other observations

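Cells without an annotation held the same patterns too. Below the cut on barcode sums there were 5 DMS + MD cells, 4 of them sorted, and 1 DMS + LH cell, of unsorted mouse 2. None of the 4 sorted DMS + MD cells had an often read DMS UMI, beside 104 to 146 DMS UMIs and 11 to 39 often read MD UMIs. The DMS + LH cell had none either, beside 133 DMS UMIs and 61 often read LH UMIs. The DMS + MD cell of mouse 2 had 5. Among the 11 DMS + MD + LH neurons, 1 had an often read DMS UMI, while all 11 had often read MD and LH UMIs.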
